A study of Homo sapiens with 6 samples.

Results

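The genes described here are 10 members of the cytokine signalling pathway that runs through STAT5: the transcription factors STAT3, STAT5A and STAT5B, the kinases PIM1, PIM2 and PIM3, and the feedback inhibitors CISH, SOCS1, SOCS2 and SOCS3. They were chosen by name from 35052 genes, and all 10 were among the 12954 that passed the low-count filter. The samples were 3 libraries of EoL-1 cells labelled ATF3/JUN double knockout and 3 of EoL-1 cells labelled JUN knockout, so both groups lacked an intact JUN by their labels and no unedited library was analysed. EoL-1 cells, an established line derived from a human eosinophilic leukaemia, are known to carry the FIP1L1::PDGFRA fusion kinase. The labels give growth in serum-containing RPMI medium with no cytokine named, polyA RNA and a stranded library kit, and their CRISPR/Cas9 entry names an ATF3 knockout for all 6 samples, so the groups follow the titles and genotype entries. A parent clone code in the deposited file names is shared by the double knockout and JUN knockout libraries with the same number, and differs between numbers; the labels do not mention clones. Whether each library was a culture of its own is not stated. The p-values thus cover the spread among these libraries, which carry different clone codes within a group. How much of that spread is technical is not known.

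As background, cytokine receptors and some fusion kinases lead to phosphorylation of STAT proteins, which pair, enter the nucleus and bind DNA at palindromic sites spaced as TTCNNNGAA. STAT5 then switches on PIM kinases, which promote survival and growth, and CISH and SOCS proteins, which bind receptors or JAK kinases and damp the signal. In eosinophils and their precursors this route carries the response to IL-5, IL-3 and GM-CSF. Their mRNA levels are often read as a sign of STAT5 activity, though phosphorylation itself was not measured here.

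The libraries held 26146998 to 29567970 estimated reads. Of 9 eosinophil markers, RNASE2 and RNASE3 passed the filter, and EPX, PRG3, CLC and IL5RA, the IL-5 receptor chain, had 0 reads in all 6 libraries. The summed level of the 9 was 148, 120 and 186 TPM (a level per transcript length, scaled to the same total in each library) in double knockout replicates 1, 2 and 3 and 70.4, 166 and 194 TPM in JUN knockout replicates 1, 2 and 3. None of 8 markers of other cell types passed the filter, and their sum was at most 1.86 TPM in any library, with CD3E, HBB, PF4 and EPCAM at 0 reads. The cell type label is eosinophil, and most markers of mature eosinophils were thus absent or under the filter. ATF3 mRNA was at 13.1, 10.0 and 7.63 CPM (counts scaled to library size after TMM normalization, not per length) in the double knockout and 20.2, 13.7 and 8.89 CPM in the JUN knockout (log2 fold change −0.48, edgeR adjusted p = 0.931). It was lower in the double knockout for each replicate number. With the replicate number as a block the estimate was −0.44 (SE 0.13), with an unadjusted p of 0.00988 and an adjusted p of 0.394 in edgeR. JUN was at 13.8, 16.6 and 25.7 CPM in the double knockout and 13.2, 27.2 and 24.6 CPM in the JUN knockout. The labels do not give where the edits lie in either gene, so these totals do not check the genotypes.

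On the TPM scale, averaged over the 6 libraries, PIM1 stood at 393 TPM and CISH at 83.8 TPM. SOCS2 (33.7 TPM), SOCS1 (30.9), PIM2 (28.3), STAT5B (26.8), STAT3 (23.3), PIM3 (23.0) and STAT5A (17.5) followed, and SOCS3 was lowest at 1.56 TPM. PIM1 in its lowest library (229 TPM) was above CISH in its highest (103 TPM), CISH in its lowest (68.5 TPM) was above SOCS2 in its highest (38.4 TPM) and STAT5A in its lowest (12.3 TPM) was above SOCS3 in its highest (1.98 TPM). Between SOCS2 and STAT5A, neighbours in this order had overlapping ranges. These sums count every transcript, short retained-intron ones included, and the order depends on that. The protein-coding STAT5A-209, with 84.0% of STAT5A reads, stood at 8.26 TPM, and STAT5B-201, with 90.7% of STAT5B reads, at 17.0 TPM. The main PIM3 transcript, PIM3-201, stood at 22.6 TPM.

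The STAT genes lie side by side on chromosome 17 in GRCh38 (GENCODE 29), STAT5B at 42199168 to 42276707 on the minus strand, STAT5A (ENSG00000126561) at 42287547 to 42311943 on the plus strand and STAT3 (ENSG00000168610) at 42313324 to 42388568 on the minus strand. STAT5B (ENSG00000173757) had 116, 110 and 93.9 CPM in double knockout replicates 1, 2 and 3, and 118, 98.6 and 90.6 CPM in JUN knockout replicates 1, 2 and 3. STAT5A had 44.8, 41.5 and 33.5 CPM in the double knockout and 46.5, 33.3 and 29.4 CPM in the JUN knockout. In both genes the replicate 1 libraries were highest and the replicate 3 libraries lowest in each group, and the groups overlapped. STAT5A and STAT5B are closely related genes: 11.8% of the 31-base words in STAT5A transcripts also occur in STAT5B transcripts, so part of the reads was divided between them by the quantification and their separate levels are uncertain to that extent. STAT3, the factor downstream of IL-6 family receptors and G-CSF, had 111, 106 and 93.2 CPM in the double knockout and 112, 91.2 and 84.1 CPM in the JUN knockout, in the same order. In bulk RNA, fewer cells with a transcript and less of it per cell cannot be told apart.

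edgeR's quasi-likelihood test separated none of the 3 STAT genes from 0. The log2 fold change of double knockout over JUN knockout was 0.11 for STAT3 (SE 0.13), 0.13 for STAT5A (SE 0.19) and 0.06 for STAT5B (SE 0.13), each with a Benjamini-Hochberg adjusted p of at least 0.968 over all genes. In pair 1 all 3 differences were below 0 (−0.01, −0.05 and −0.03), and in pairs 2 and 3 all were above 0, up to 0.31 for STAT5A in pair 2. With an offset for transcript length STAT3 was at 0.0041, and leaving out JUN knockout replicate 3 gave 0.03, leaving out JUN knockout replicate 1 gave 0.24.

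PIM1 (ENSG00000137193; chromosome 6, 37170203 to 37175426, plus strand), a serine/threonine kinase gene and a known STAT5 target, was the most abundant and the most variable of the 10. It had 1267, 957 and 677 CPM in double knockout replicates 1, 2 and 3 and 927, 654 and 549.9 CPM in JUN knockout replicates 1, 2 and 3. Each double knockout library was above the JUN knockout library of the same number, by 0.45, 0.55 and 0.30 on the log2 scale in pairs 1, 2 and 3. The groups overlapped all the same, since JUN knockout replicate 1 was above double knockout replicate 3. The mean was 967 ± 295 CPM in the double knockout and 710 ± 195 CPM in the JUN knockout (SD, n = 3 each). The log2 fold change was 0.45 (SE 0.27) with an edgeR adjusted p of 0.919. With the replicate number as a block the estimate was 0.43 (SE 0.08), with an unadjusted p of 0.000812 and an adjusted p of 0.231 in edgeR. DESeq2 with the same block, an alternative chosen after the data were seen, gave an adjusted p of 0.00238, and limma-voom with it gave 0.219. Leaving out a library moved the estimate, to 0.20 for double knockout replicate 1, 0.29 for JUN knockout replicate 3 and 0.68 for JUN knockout replicate 1.

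PIM2 (ENSG00000102096; chromosome X, 48913182 to 48919024, minus strand), the family member prominent in lymphoid and myeloid cells, had 55.8, 57.2 and 53.4 CPM in the double knockout and 51.5, 52.4 and 44.3 CPM in the JUN knockout. It was the only one of the 10 genes whose groups did not overlap, against 12.3% of all tested genes in either direction and 6.31% with the double knockout higher. Its log2 fold change was 0.17 (SE 0.09, edgeR adjusted p = 0.901), and 0.095 without JUN knockout replicate 3. PIM3 (ENSG00000198355; chromosome 22, 49960513 to 49964080, plus strand), the third kinase of the family, had 50.5, 47.5 and 53.0 CPM in the double knockout and 38.8, 50.7 and 51.9 CPM in the JUN knockout. JUN knockout replicate 1, where PIM1 was highest in its group, was the lowest library for PIM3. The difference for PIM3, 0.09 on the log2 scale (SE 0.13, edgeR adjusted p = 0.969), was −0.03 without JUN knockout replicate 1.

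**Figure D1:**
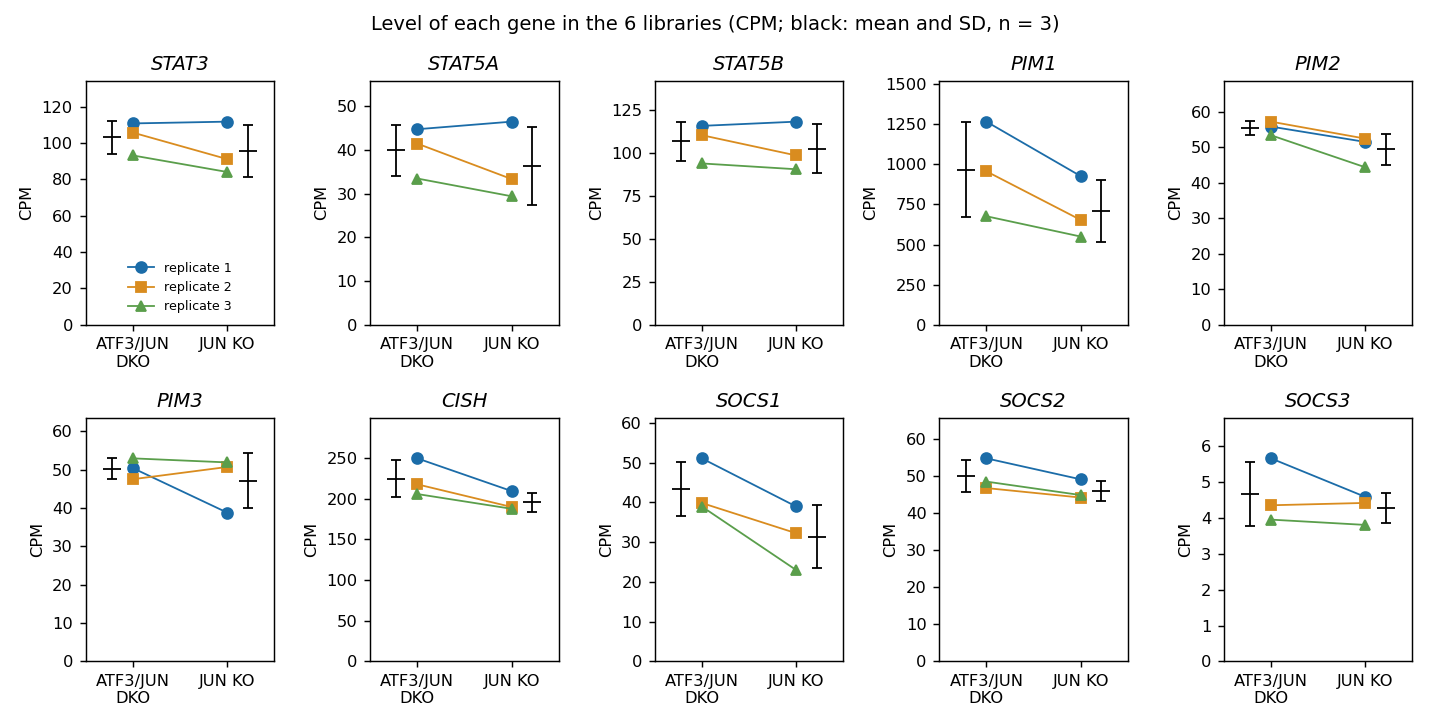
CPM of each gene (y axes, from 0) in the ATF3/JUN double knockout (left) and JUN knockout (right), with a line joining same-numbered libraries and black bars for mean and SD (n = 3). PIM1 lies lower in each JUN knockout library than in the double knockout library of its number, while STAT3, STAT5A and STAT5B lie slightly higher in JUN knockout replicate 1 than in double knockout replicate 1.

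CISH (ENSG00000114737; chromosome 3, 50606490 to 50611831, minus strand) encodes an SH2 protein that competes for STAT5 docking sites on receptors. Its promoter window is shown because it carries the STAT-type palindrome several times, beside that of PIM1, the most variable gene. RefSeq windows (GRCh38.p14) of 250 bases before to 50 bases after the start site were found for 9 of the 10 genes, 12 windows in all. Below, chr3:50611725-50612024 (minus strand) and chr6:37169902-37170201 (plus strand) run 5′ to 3′, with matches to TTCNNNGAA in capitals.
CISH: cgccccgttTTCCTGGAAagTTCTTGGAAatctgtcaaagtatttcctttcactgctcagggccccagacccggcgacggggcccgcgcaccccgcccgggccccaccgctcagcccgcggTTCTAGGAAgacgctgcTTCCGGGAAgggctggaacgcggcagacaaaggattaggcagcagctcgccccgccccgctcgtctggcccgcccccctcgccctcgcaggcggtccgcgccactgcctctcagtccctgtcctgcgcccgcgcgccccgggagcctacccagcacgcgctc
PIM1: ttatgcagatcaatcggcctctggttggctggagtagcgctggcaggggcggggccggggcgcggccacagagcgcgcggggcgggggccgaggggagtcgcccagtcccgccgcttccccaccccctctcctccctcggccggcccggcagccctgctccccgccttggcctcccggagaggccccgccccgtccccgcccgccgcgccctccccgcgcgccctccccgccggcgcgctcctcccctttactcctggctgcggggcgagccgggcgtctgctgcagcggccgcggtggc
The CISH window held 4 matches, beginning at positions −241, −230, −129 and −112 relative to the start site: TTCCTGGAA, TTCTTGGAA, TTCTAGGAA and TTCCGGGAA. TTCNNNGAA reads the same on both strands. At least 1 match stood in 7.66% of 35116 RefSeq promoter windows, and 4 or more in 7 of them. The windows of the other 8 genes, PIM1 included, held no match. The AP-1 motif TGANTCA (7.71% of all windows) and the CRE TGACGTCA (1.85%), both also the same on either strand, were found in none of the 9 genes' windows. These matches describe letters and do not show binding. Sequence outside the windows was not searched, and a RefSeq start site can differ from the 5′ end of the GENCODE gene. The SOCS3 windows, chr17:78359618-78359917 and chr17:78360876-78361175, leave out its GENCODE 5′ end at 78360077. The GENCODE 5′ ends of STAT5B, PIM3 and PIM1 also lie outside their windows.

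CISH had 249.6, 218 and 206 CPM in double knockout replicates 1, 2 and 3 and 209, 190 and 188 CPM in JUN knockout replicates 1, 2 and 3. As with PIM1, double knockout replicate 1 was the highest library, each double knockout library was above its JUN knockout partner, and the groups overlapped. Double knockout libraries averaged 224 ± 22.7 CPM and JUN knockout libraries 196 ± 12.0 CPM (SD, n = 3 each). The difference was 0.20 on the log2 scale (SE 0.10), with an adjusted p of 0.893 in edgeR. With the block the unadjusted p was 0.0373 and the adjusted p 0.491 in edgeR. Without double knockout replicate 1 the estimate was 0.11.

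SOCS1 (ENSG00000185338; chromosome 16, 11254405 to 11256200, minus strand), which blocks JAK kinases directly, had the largest log2 fold change of the 10. It was at 51.1, 39.8 and 38.9 CPM in the double knockout and 39.0, 32.2 and 23.0 CPM in the JUN knockout. Double knockout replicate 3 and JUN knockout replicate 1 were nearly level, and this was the whole overlap between the groups. Double knockout libraries averaged 43.3 ± 6.75 CPM and JUN knockout libraries 31.4 ± 8.02 CPM (SD, n = 3 each), with log2 differences of 0.39, 0.30 and 0.76 in pairs 1, 2 and 3. The log2 fold change was 0.46 (SE 0.21, edgeR unadjusted p = 0.0588, adjusted p = 0.887). With the block it was 0.48 (SE 0.11, unadjusted p = 0.0026, adjusted p = 0.312 in edgeR), and DESeq2 with the block gave an adjusted p of 0.109. Without JUN knockout replicate 3 the estimate was 0.28.

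SOCS2 (ENSG00000120833; chromosome 12, 93569814 to 93583487, plus strand), known for restraining growth hormone signalling and also induced by STAT5, had 54.9, 46.9 and 48.6 CPM in the double knockout and 49.2, 44.3 and 45.0 CPM in the JUN knockout. Its libraries spanned the narrowest range of the 10 genes, 0.31 on the log2 scale, against 1.2 for PIM1. The log2 fold change was 0.12 (SE 0.09, edgeR adjusted p = 0.943), and 0.05 without double knockout replicate 1. SOCS3 (ENSG00000184557; chromosome 17, 78356778 to 78360077, minus strand), the inhibitor of IL-6 and G-CSF receptor signalling and a STAT3 target, had the fewest reads of the 10, 99 to 141 per library, and so the largest counting error. It was at 5.67, 4.36 and 3.96 CPM in the double knockout and 4.59, 4.43 and 3.81 CPM in the JUN knockout (log2 fold change 0.12, SE 0.20, edgeR adjusted p = 0.974).

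All 10 genes had a log2 fold change above 0, as did 50.7% of all tested genes, and their median was 0.13 against 0.0032 over all genes. None of the 10 passed an adjusted p of 0.05 in edgeR, where the share of all genes called was 0%. None had an unadjusted p under 0.05, against 5.81% of all genes (753 of 12954). DESeq2 and limma-voom without the block also called 0 of the 10, among 71 (0.548%) and 4 (0.0309%) calls over all genes. With the block, edgeR again called 0 of 12954, and PIM1, SOCS1 and CISH had an unadjusted p under 0.05, all 3 higher in the double knockout, against 9.79% of all genes in either direction and 5.3% higher. DESeq2 with the block called PIM1 among 89 genes (0.687%), and limma-voom with it called none of the 10 among 6 (0.0463%). PIM1, PIM2, CISH, SOCS1 and SOCS2 were higher in 3 of 3 same-numbered pairs, 5 of 10 genes against 18% of all genes. The 10 genes were measured in the same 6 libraries and are not independent of each other. The direction above 0 was lost for STAT5A, STAT5B, PIM3 and SOCS3 when some libraries were left out, and held for the other 6 genes in all 18 alternatives run.

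**Figure D2:**
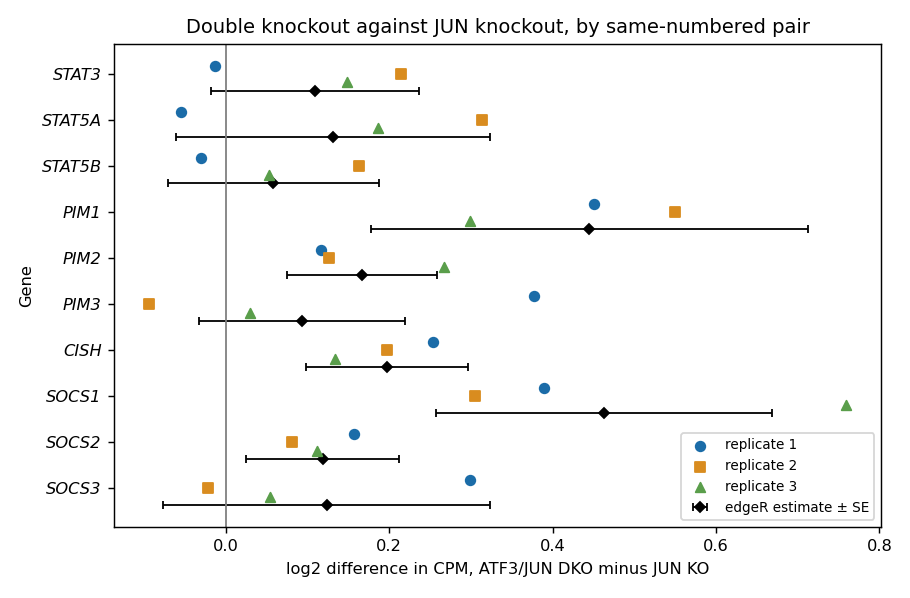
Log2 difference in CPM, double knockout minus JUN knockout (x axis), for each gene (y axis) in the 3 same-numbered pairs, with the edgeR estimate ± SE in black. PIM1, PIM2, CISH, SOCS1 and SOCS2 lie above 0 in all 3 pairs, with SOCS1 reaching 0.76 in pair 3.

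Most of the variation in the STAT genes lay between replicate numbers. The sum of squares of log2 CPM over the 6 libraries was divided into group, replicate number and remainder, as a description. Replicate number took 88.6% in STAT5B, 81.0% in STAT5A, 76.4% in SOCS3, 76.3% in STAT3, 69.8% in PIM1 and 64.9% in SOCS2, while the group took 4.31% in STAT5B, 9.20% in STAT5A, 14.2% in STAT3 and 28.5% in PIM1. PIM2, CISH and SOCS1 were the genes where the group took most, 51.8%, 50.3% and 47.5%. Over all tested genes the median share was 51.6% for replicate number and 12.8% for group, and replicate number took over 50% in 6 of the 10 genes and in 51.9% of all genes. The remainder, left after both, was 1.62% in PIM1, 2.35% in SOCS2 and 3.20% in CISH, against a median of 22.5%, and 43.7% in PIM3.

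**Figure D3:**
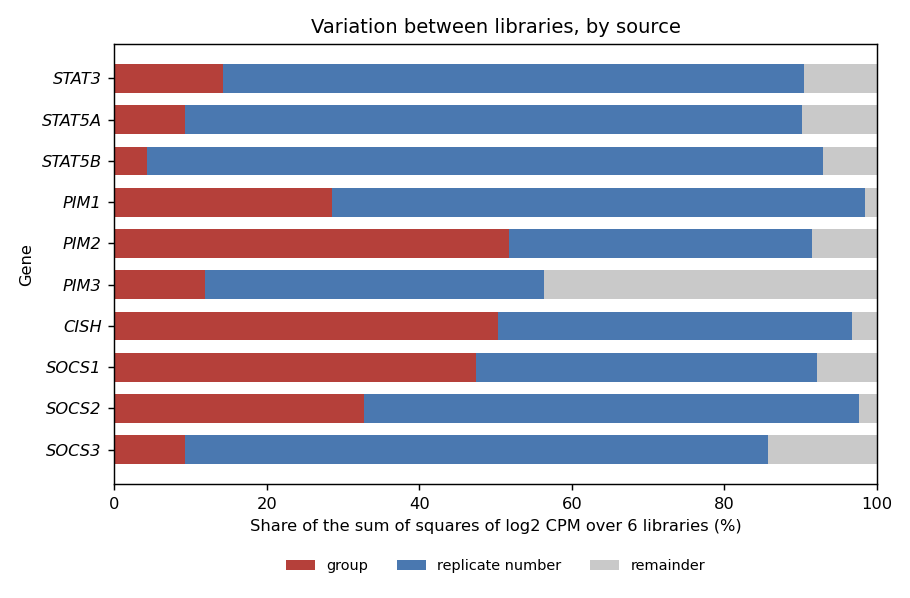
Share of the sum of squares of log2 CPM over 6 libraries (x axis, %) taken by group, replicate number and remainder for each gene (y axis). The bar of STAT5B is 88.6% replicate number, while that of PIM2 is 51.8% group and PIM3 has the largest remainder.

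The genes also shared the order of the libraries. In 9 of the 10, all but PIM3, the 3 replicate numbers stood in the same order in both groups, as in 28.2% of all genes. In STAT3, STAT5A, STAT5B, PIM1, CISH, SOCS1 and SOCS3, replicate 1 was highest and replicate 3 lowest in both groups, 7 of 10 against 11.4% of all genes. On the TPM scale the same order in both groups was found in 5 of the 10 (CISH, PIM1, SOCS1, SOCS3 and STAT5A), against 24.5% of all genes. An overlapping pattern crosses the genotypes. Double knockout replicates 1 and 2 and JUN knockout replicate 1 were the 3 highest libraries for STAT3, STAT5A, STAT5B, PIM1, CISH and SOCS1. These were 6 of 10 against 17.8% of all genes, and all 6 are among the 7 with replicate 1 highest and replicate 3 lowest. The split was also seen over all genes, by chi-square per gene between the counts of 2 libraries (lower is closer). Values were 12.3 to 22.3 among these libraries, 13.5 to 20.2 among the others and 30.4 to 72.6 between the 2 sets. Double knockout replicates 1 and 2 and JUN knockout replicate 1 also held the 3 highest levels of FLT3, a receptor kinase that can activate STAT5. It was at 269.8, 291 and 284 CPM there, against 215, 220.2 and 164 CPM in double knockout replicate 3 and JUN knockout replicates 2 and 3. Other receptors and kinases of the pathway did not all share this. JAK1 was also highest in these 3 libraries, IL7R was lowest in them, and IL6R was highest in the replicate 3 libraries. FLT3, JAK1, IL7R, IL6R and the next gene were picked after their values were seen. IL2RG, the shared receptor chain for IL-2 family cytokines that act through STAT5, was at 39.1, 42.6 and 2.12 CPM in double knockout replicates 1, 2 and 3 and 46.3, 44.9 and 2.42 CPM in JUN knockout replicates 1, 2 and 3, so it was low in the replicate 3 libraries of both groups and replicate number took 99.8% of its sum of squares. ATF3 itself was highest in replicate 1 and lowest in replicate 3 of each group. The part of these differences in the levels of the 10 genes was not tested.

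**Figure D4:**
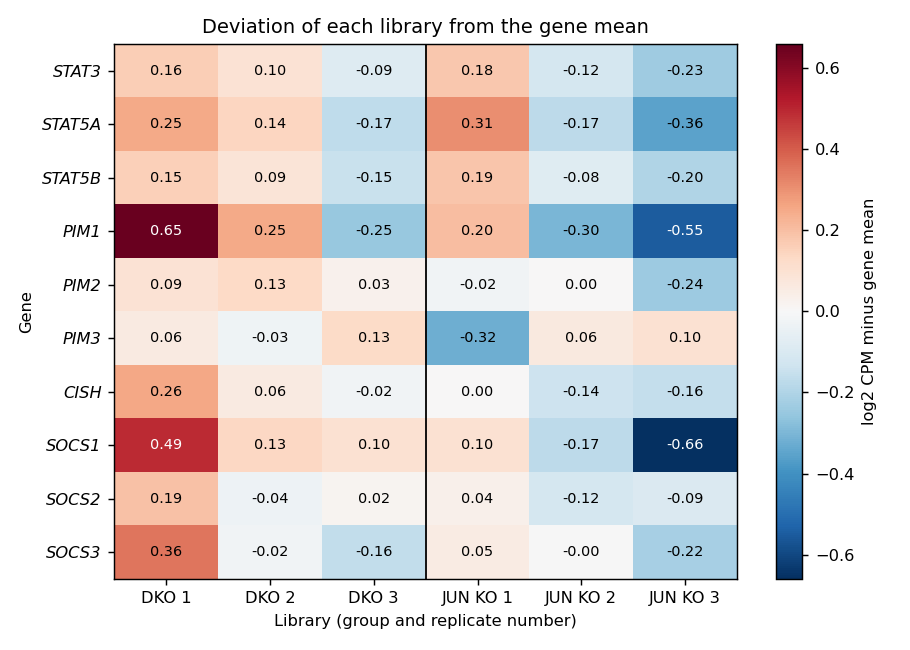
Log2 CPM minus the gene's mean over 6 libraries (colour and printed value) for each gene (y axis) in each library (x axis, DKO for the ATF3/JUN double knockout on the left). PIM1 is at 0.65 in double knockout replicate 1 and at −0.55 in JUN knockout replicate 3, and PIM3 is lowest in JUN knockout replicate 1 at −0.32.

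Among the 10 genes, STAT3 and STAT5B had the most similar profiles, with a root mean square difference of 0.03 between their centred log2 CPM over the 6 libraries, followed by CISH and SOCS2 at 0.06. PIM1 and PIM3 were farthest apart at 0.48. Outside the 10, the genes of at least 10 CPM closest to PIM1 were SPNS3, a transporter family gene (0.06), DNAJC1, an endoplasmic reticulum co-chaperone (0.07), and FAM43A (0.08), where the median of 8877 candidates was 0.42. SPNS3 had 189, 134 and 92.2 CPM in the double knockout and 143, 92.5 and 82.7 CPM in the JUN knockout. Closest to CISH were PAAF1 (0.02), SND1 (0.02) and MEX3C (0.03), with a median of 0.19. These distances are descriptions over 6 libraries.

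Each gene except SOCS3 and PIM3 had more than 1 transcript at a mean of at least 1 TPM, 25 transcripts in 8 genes. A single protein-coding transcript held most estimated reads of STAT3 (STAT3-201, 83.0%), STAT5A (STAT5A-209, 84.0%), STAT5B (STAT5B-201, 90.7%), PIM1 (PIM1-201, 92.5%), PIM2 (PIM2-201, 93.6%) and SOCS1 (SOCS1-201, 80.2%). CISH had 71.8% in CISH-201 and 28.2% in CISH-203, annotated as retaining an intron. SOCS2 was spread over SOCS2-207 (32.9%), SOCS2-206 (25.1%) and others.

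The share of a transcript in its gene's summed TPM did not overlap between groups for 6 of the 25, 24% against 15.4% of 35442 transcripts over all genes. The exact two-sided permutation test gave these 6 p = 0.1, the smallest that 3 against 3 allows, so no share could pass 0.05. PIM1-203, a transcript without a coding sequence in the annotation, took 22.1%, 23.9% and 22.5% of PIM1 TPM in double knockout replicates 1, 2 and 3 and 19.01%, 17.98% and 16.1% in JUN knockout replicates 1, 2 and 3. SOCS2-207 took 25.95%, 23.1% and 28.9% in the double knockout and 21.1%, 17.1% and 17.0% in the JUN knockout. SOCS2-206 went the other way, at 10.8%, 12.6% and 13.1% in the double knockout and 15.9%, 19.5% and 16.0% in the JUN knockout. PIM2-202 was at 13.1 ± 0.44% in the double knockout and 10.8 ± 0.26% in the JUN knockout (SD, n = 3 each). STAT5A-205 was at 17.6 ± 2.18% in the double knockout and 14.5 ± 0.61% in the JUN knockout. STAT5B-206 was at 9.67 ± 1.22% in the double knockout and 15.8 ± 1.80% in the JUN knockout. The last 2 are short retained-intron transcripts. All these shares depend on how the quantification divided reads between overlapping transcripts. TPM is per transcript length, so short transcripts weigh more in it than in reads. By estimated reads PIM1-203 averaged 5.30% of PIM1 in the double knockout and 3.95% in the JUN knockout. STAT5A-205 averaged 2.78% and 2.27%, and STAT5B-206 2.14% and 3.43%, in the same order of groups.

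**Figure D5:**
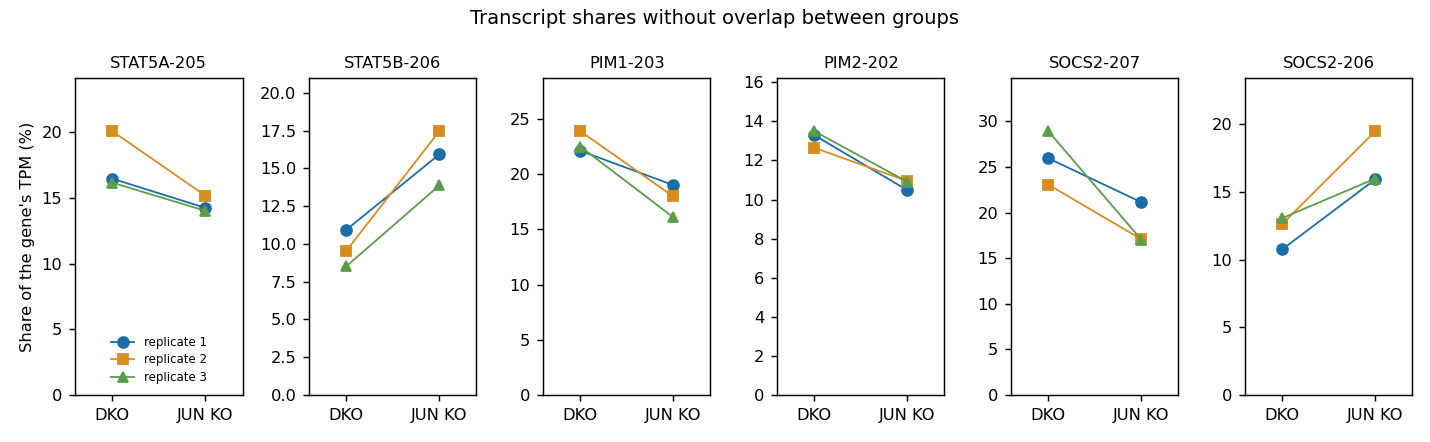
Share of a gene's summed TPM (y axis, %, from 0) in the 6 transcripts whose groups did not overlap, for the double knockout (DKO, left) and JUN knockout (right), with lines joining same-numbered libraries. PIM1-203 and SOCS2-207 lie higher and SOCS2-206 and STAT5B-206 lower in the double knockout.

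Other genes of the pathway, from lists chosen with earlier results of these data known, contained no gene past an adjusted p of 0.05 in edgeR, with or without the block. Of 19 receptors and kinases 15 were tested, 7 above and 8 below 0, with a median log2 fold change of −0.05. TYK2, a JAK family kinase, had the highest mean TPM of them, at 184 ± 20.9 TPM in the double knockout and 206 ± 17.4 TPM in the JUN knockout (SD, n = 3 each). This rank depends on the scale. In CPM, TYK2 averaged 224 in the double knockout and 231 in the JUN knockout, against 258 and 223 for FLT3. CSF3R, the G-CSF receptor, had the lowest p, at 47.0, 32.9 and 37.0 CPM in the double knockout and 26.5, 25.4 and 25.1 CPM in the JUN knockout, so its groups did not overlap (log2 fold change 0.60, SE 0.14, edgeR adjusted p = 0.697). STAT6, the IL-4 and IL-13 factor, was at 65.1 ± 11.6 TPM in the double knockout and 81.3 ± 5.32 TPM in the JUN knockout.

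The other regulators, 16 of 16 tested, lay 7 above and 9 below 0, with a median of −0.02. PTPN6, the phosphatase SHP-1, had the highest mean TPM over the 6 libraries, at 189 ± 4.33 TPM in the double knockout and 197 ± 20.5 TPM in the JUN knockout. PTPN2, another phosphatase, was above it in TPM in double knockout replicates 2 and 3 and JUN knockout replicate 1. This held on the TPM scale only, where PTPN2 ran from 62.1 to 278 TPM. In CPM, PTPN2 averaged 91.9 in the double knockout and 95.8 in the JUN knockout, against 328 and 336 for PTPN6. PIAS3, an inhibitor of STAT3, had the lowest p, at 11.9, 12.0 and 14.1 CPM in the double knockout and 14.1, 15.6 and 16.1 CPM in the JUN knockout (−0.27, SE 0.12, edgeR adjusted p = 0.883). Of 16 other genes known to be regulated by STAT5 or STAT3, 15 were tested and 14 lay above 0, with a median of 0.08. Over all tested genes 50.7% lay above 0 and the median was 0.0032. The 15 genes were measured in the same 6 libraries and are not independent of each other. MYC was both the most abundant of the 15 and the one with the lowest p. It was at 465 ± 31.6 TPM in the double knockout and 351 ± 21.2 TPM in the JUN knockout (edgeR adjusted p = 0.563). Its group share of the sum of squares was 96.1%, and replicate number took 0.428%, against 69.8% in PIM1. OSM, the cytokine oncostatin M, and IL2RA, the IL-2 receptor alpha chain, named after their values were seen, had log2 fold changes of 0.57 (SE 0.21) and 0.35 (SE 0.12) with edgeR adjusted p of 0.851 and 0.816.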

How the data were processed

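Each library's deposited file lists Ensembl transcripts with their estimated count and TPM, made with Salmon 1.6.0 on build hg38 per the submitters' processing notes; FastQC 0.11.9 is also named there. For the transcript set, read layout and Salmon options, the sources used here give nothing. Of 177456 transcripts, 167027 matched GENCODE release 29 by identifier, and the others, with 3.58% to 3.71% of reads, were left out. Each gene's estimated counts and TPM were the sums over its transcripts, with counts then rounded.

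Groups were compared with edgeR's quasi-likelihood test (4.0.16, R 4.3.3; filterByExpr, TMM, robust, group as single term) over 12954 genes with Benjamini-Hochberg adjustment. SE is the log2 fold change divided by the square root of F. Log2 CPM used a prior count of 2. Alternatives were DESeq2 1.42.0, limma-voom 3.58.1, RLE scaling, other filters, a transcript length offset, a replicate block and left-out libraries.

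The replicate numbers were taken as pairs because file names share a parent clone code. As a check, each pair's deviations from its group means had a correlation over genes of 0.33 for number 1, 0.0958 for number 2 and 0.41 for number 3.

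The members and lists were chosen with earlier results of these data known. The rule for named genes took the 10 members, the targeted genes, the gene of highest mean TPM and the gene of lowest p in each pathway list, and the 3 nearest profiles to PIM1 and CISH; 1 gene that it names is not reported here. FLT3, JAK1, IL7R, IL6R, IL2RG, PTPN2, OSM and IL2RA fall outside it and were chosen after their values were seen. Cell type markers are named only for their presence or absence. No library pair agreed within sampling noise (chi-square per gene at least 12.3).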

Additional observations from a re-analysis of the deposited data

How the results depend on the processing

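The count of genes called over the whole table was 0 in edgeR and stayed 0 with RLE scaling, a filter of 1 CPM in 3 libraries, a transcript length offset and the replicate block. It was 1 with no low-count filter, 71 with DESeq2 and 4 with limma-voom. With the replicate block, chosen after seeing the data for these tools, it was 89 with DESeq2 and 6 with limma-voom. Left-out libraries gave 0 to 1, the 1 without both replicates 3. Of the 10 STAT, PIM, CISH and SOCS genes, 1 was called in a single alternative, DESeq2 with the replicate block (PIM1, log2 fold change 0.43), and 0 in the other 17.

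Over left-out libraries the log2 fold change ran from −0.0222 to 0.17 for STAT5B, from −4.17e-05 to 0.35 for STAT5A, from −0.0301 to 0.18 for PIM3 and from −0.0408 to 0.23 for SOCS3. STAT5A and STAT5B were below 0 without JUN knockout replicate 3, STAT5B and SOCS3 without double knockout replicate 1 (−0.00466 and −0.0408), STAT5B also without both replicates 2 (−0.00528), and PIM3 without JUN knockout replicate 1 (−0.0281) or both replicates 1. Taken as a share of estimated reads in place of TPM, the group difference turned for STAT3-201 (−1.46 percentage points, against 2.55) and PIM2-201 (−0.148, against 0.287). The causes were not tested. The pairing behind the block rests on the file names, and double knockout replicate 2 correlated slightly better with JUN knockout replicate 1 (0.112) than with its own number. By chi-square per gene (lower is closer) it was at 21.7 from JUN knockout replicate 1 and 30.4 from JUN knockout replicate 2. The latter was closer to double knockout replicate 3 (20.2). Double knockout replicates 1 and 3 were closest, among JUN knockout libraries, to their own number (22.3 and 14.3). Results with the block or by pair are thus least certain for number 2. Depth limits SOCS3 most, at 99 to 141 reads per library.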
